A study of Mus musculus with 9 samples.

Results

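The genes described here encode surface proteins through which B cells and T cells raise or restrain each other's activation. They are 8 of the 24459 rows of the expression table, chosen by name: the B7 family ligands Cd80, Cd86, Icosl, Cd274 and Pdcd1lg2, the receptor Btla with its ligand Tnfrsf14, and the receptor Ctla4. Each name matched 1 row, and all 8 passed the minimum for testing, a mean of at least 0.5 FPKM (fragments per kilobase of transcript, scaled to the size of the library, and so a level per transcript length) over the 9 libraries.

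RNA was sequenced from 3 subsets of splenic B cells sorted by flow cytometry from naive C57/BL6 mice of 8 to 10 weeks of age, with no treatment. Follicular (FO) B cells were gated as B220+ IgMint CD21int CD23+ CD93- with high IgD, BDL carried the same markers with low or no IgD, and marginal zone (MZ) B cells were IgMhi CD21hi CD23- CD93-. Each subset has 3 libraries from 3 independent sorts, each of splenocytes pooled from 5 mice. Libraries are numbered by the date in their titles, so that replicates of the same number share a date. The labels do not say what this date is of, and it is taken here as the sort date. All libraries of date 2 have titles written in another form than the rest. The study's figure legend names B10.PL mice for the RNA-seq where the labels name C57/BL6, and its methods name a stranded kit where the labels name one that is not strand specific. The part of either in the values was not tested.

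B7 proteins on an antigen-presenting cell deliver the second signal that a T cell needs beside its antigen receptor. CD80 and CD86 bind CD28, which activates, and CTLA-4, which restrains, while ICOS ligand binds ICOS on follicular helper and regulatory T cells. PD-L1 (Cd274) and PD-L2 (Pdcd1lg2) bind the inhibitory receptor PD-1. BTLA is an inhibitory receptor of B and T cells whose ligand HVEM (Tnfrsf14) is a TNF receptor family member. In the spleen, MZ B cells lie at the border of the white pulp and respond fast to blood-borne antigen, whereas FO B cells recirculate through follicles and present antigen to T cells there.

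The libraries were similar in depth, and those of FO and MZ B cells differed in the markers of these 2 subsets. The table holds no counts, but the spacing of low values gave approximate depths of 0.922 to 1.24 times that of FO replicate 1. Summed FPKM of 7 B cell markers was 3723 to 4268 in FO, 4160 to 4874 in BDL and 3440 to 4341 in MZ B cells, with none of the 7 at 0. All 6 MZ markers were called higher in MZ than in FO B cells, and all 3 FO markers lower, although Cr2 (CD21) and Fcer2a (CD23) among them were used in the sort. Between BDL and FO B cells, 0 of the 3 FO markers were called. The row of IgD, by which the sort parted these 2 subsets, was not analysed here. In RNA pooled from many cells, fewer cells expressing a gene and less RNA in each cell cannot be told apart.

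Differences between subsets were tested with limma on log2(FPKM + 0.1) over 11597 rows, and genes with an adjusted p below 0.05 that differed 2-fold or more were called. Each log2 fold change below is on that scale, with its standard error (SE) and its Benjamini-Hochberg adjusted p from limma. Differences between subsets given as times are ratios of mean FPKM without the constant. Between MZ and FO B cells, 5 of the 8 genes were called (62.5%, against 8.92% of all rows tested): Cd80, Cd86 and Cd274 were higher in MZ B cells, and Icosl and Btla were lower. Between BDL and MZ B cells, 4 of the 8 were called (50%, against 7.80% of all rows): Cd80, Cd86 and Cd274 were lower in BDL, and Btla was higher. Between BDL and FO B cells, 1 of the 8 was called, Cd80, which was higher in BDL (12.5%, against 1.91% of all rows). With the date as a block in the fit, Ctla4 was also called in this comparison, which made 2 of 8.

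By the adjusted p alone, without the 2-fold limit, 6 of the 8 genes passed between MZ and FO B cells, 5 between BDL and MZ B cells and 3 between BDL and FO B cells, where 27.1%, 28.1% and 7.73% of all rows passed. The FPKM of the subsets compared did not overlap for 7, 6 and 3 of the 8 genes, as was so for 46.1%, 38.9% and 34.8% of all rows. The median log2 fold change of the 8 genes was 0.84 for MZ over FO, -0.39 for BDL over MZ and 0.05 for BDL over FO, beside -0.01, 0.06 and 0.05 over all rows tested. The 3 comparisons share libraries, so that a gene's values in them are not independent of one another.

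**Figure D1:**
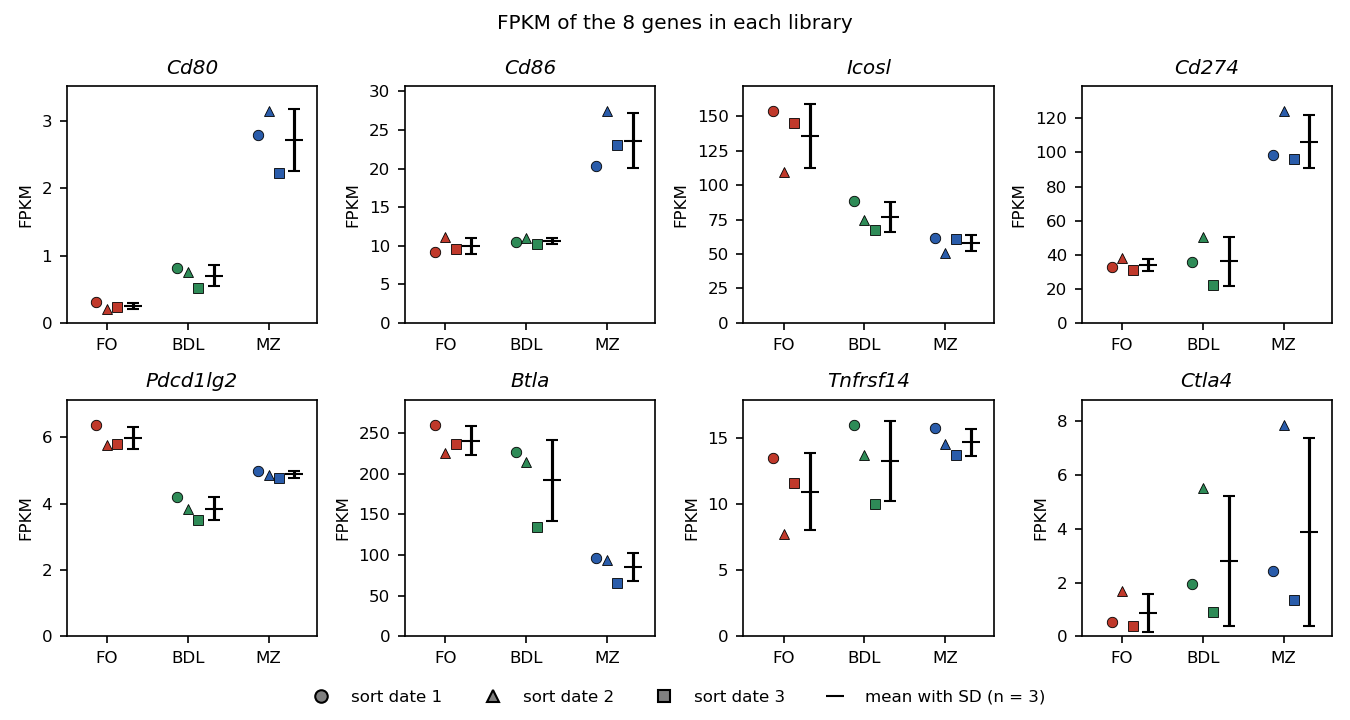
FPKM (vertical axes, each from 0) of the 8 genes in the 9 libraries by subset, with the symbol giving the sort date and the bar the mean with SD of 3 libraries. Cd80, Cd86 and Cd274 are highest in the 3 MZ libraries, Icosl and Btla are lowest there, Pdcd1lg2 is lowest in BDL, and Ctla4 is highest in the date 2 library of each subset.

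**Figure D2:**
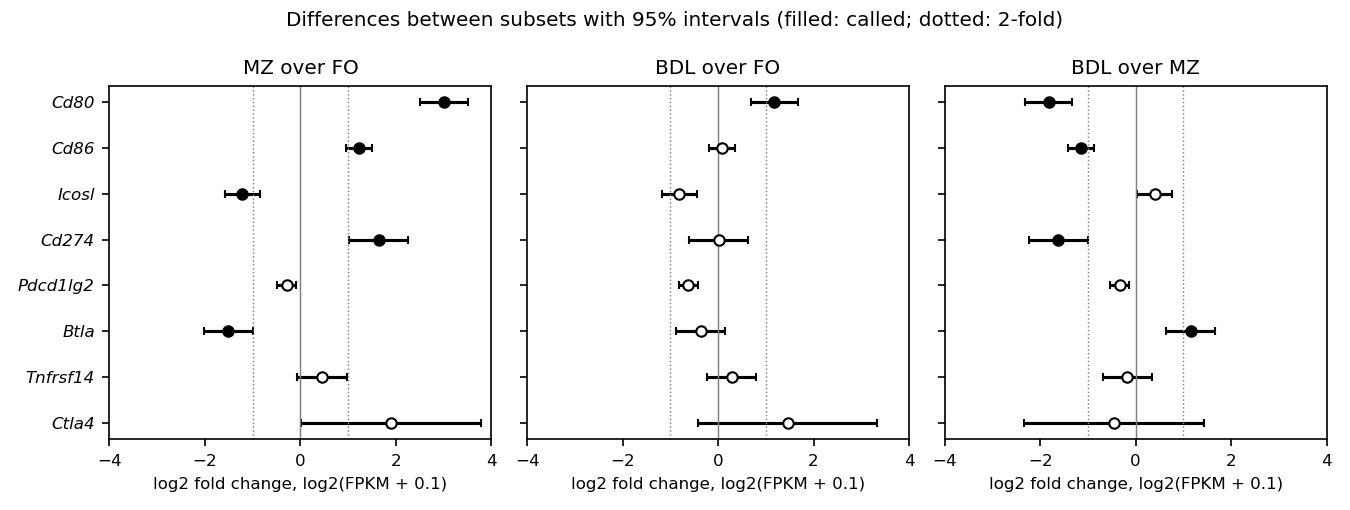
Log2 fold change on the log2(FPKM + 0.1) scale (horizontal axes) with its 95% interval from limma for each gene in the 3 comparisons, with filled points for called genes and dotted lines at a 2-fold change. Filled points number 5 for MZ over FO, 1 for BDL over FO and 4 for BDL over MZ, and the intervals of Ctla4 are the widest of the 8 genes in every panel.

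Cd80 encodes B7-1, a ligand of CD28 and CTLA-4, and lies on chr16:38459013-38495821 (NCBIM37, plus strand). Its FPKM was 0.307, 0.209 and 0.235 in FO B cells, 0.821, 0.755 and 0.522 in BDL and 2.79, 3.14 and 2.22 in MZ B cells (replicates 1, 2 and 3 throughout). The 3 subsets did not overlap, with BDL between the others. In MZ B cells its mean level was 10.8 times that in FO B cells (log2 fold change 3.003, SE 0.22, adjusted p = 2.77e-05). BDL were 2.79 times above FO B cells (log2 fold change 1.18, SE 0.22, adjusted p = 0.0170) and MZ B cells were 3.88 times above BDL (log2 fold change of BDL over MZ -1.82, SE 0.22, adjusted p = 0.000485). The order FO, BDL, MZ was the same on every date.

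Cd80 was the lowest of the 8 genes in every subset by mean FPKM, and at rank 11451 of the 11597 rows tested in FO B cells. Its levels correspond to about 41, 27 and 31 fragments in the FO libraries, 103, 106 and 86 in BDL and 343, 452 and 272 in MZ B cells. The call between BDL and FO B cells was lost without FO replicate 2 (adjusted p = 0.0548) or 3 (0.0697), without BDL replicate 1 (0.0641) or 2 (0.0580), and without all libraries of date 2 (0.193). With 1 FPKM added in place of 0.1, the log2 fold change of BDL over FO was 0.44 (adjusted p = 0.0526).

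CD80 is also a marker of memory B cells. The sums of other subset markers differed between the subsets too. No sum followed the order of Cd80, although some single markers did. The 6 B-1 and memory B cell markers summed to 5.79 to 6.03 FPKM in FO, 17.3 to 19.0 in BDL and 7.37 to 8.89 in MZ B cells. All 4 of them that were tested were called higher in BDL than in FO B cells, where 1.91% of all rows were called. The 6 MZ markers summed to 195.4 to 205.0 FPKM in FO, 173.2 to 182.8 in BDL and 922.7 to 1077 in MZ B cells, and 2 of them were called higher in BDL than in FO B cells. Germinal centre markers (5 genes) summed to 29.4 to 35.1, 26.4 to 28.3 and 7.28 to 9.48 FPKM and plasma cell markers (5 genes) to 20.8 to 21.2, 25.8 to 27.7 and 24.5 to 28.0 FPKM in FO, BDL and MZ B cells. Among the single markers of these lists, the means of Cd9, Cd1d1, S1pr3, Plxnd1, Nt5e, Prdm1 and Igj followed the order of Cd80. The other markers did not. Cd9, for example, had means of 1.98 FPKM in FO, 7.32 in BDL and 73.8 in MZ B cells. The part of the cells that these lists mark in the level of Cd80 was not tested.

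The promoter of Cd80 is shown because this gene differed most between the subsets. The sequence runs from 250 bases before to 50 after the RefSeq transcript start and was found once in the NCBIM37 genome, at chr16:38458763-38459062 on the plus strand. Capitals mark matches, on either strand, to TGGGAA, the core motif bound by the Notch partner CSL, at position -211 from the start and to the AP-1 motif TGANTCA at -42.
Cd80: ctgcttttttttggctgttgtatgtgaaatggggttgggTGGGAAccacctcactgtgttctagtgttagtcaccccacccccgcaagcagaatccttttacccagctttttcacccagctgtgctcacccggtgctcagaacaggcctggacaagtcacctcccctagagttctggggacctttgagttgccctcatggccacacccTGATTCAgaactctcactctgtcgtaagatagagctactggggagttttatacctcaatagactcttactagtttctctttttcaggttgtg
Of 32851 mouse promoters of this length, 25.6% hold TGGGAA, 7.81% hold TGANTCA and 4.51% hold the NF-kB consensus, for which the Cd80 window has no match. A match says only that these letters are present.

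Cd86 encodes B7-2, the other ligand of CD28 and CTLA-4, on chr16:36603955-36666167 (minus strand). Its FPKM was 9.23, 11.1 and 9.59 in FO B cells, 10.5, 11.04 and 10.2 in BDL and 20.4, 27.4 and 23.1 in MZ B cells. All 3 MZ libraries lay above the other 6, and BDL and FO B cells overlapped. MZ B cells were 2.37 times above FO B cells (log2 fold change 1.23, SE 0.12, adjusted p = 0.000137) and 2.23 times above BDL (log2 fold change of BDL over MZ -1.14, SE 0.12, adjusted p = 0.000238). For BDL over FO the log2 fold change was 0.09 with a 95% interval of -0.18 to 0.36 (adjusted p = 0.666), an interval that leaves out a 2-fold difference in either direction.

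Cd86 exceeded Cd80 in every library, and by less in MZ B cells than elsewhere. Both levels are per transcript length, so they can be set side by side within a library. Cd86 was 30.0 to 52.9 times Cd80 in the FO libraries, 12.8 to 19.6 times in BDL and 7.31 to 10.4 times in MZ B cells. These times are without the constant, while the log2 ratios of paired genes have 0.1 FPKM added to each gene. This makes the log2 ratio smaller in size where Cd80 is low. The log2 ratio of Cd80 over Cd86 was -4.85 ± 0.33 in FO, -3.76 ± 0.27 in BDL and -3.08 ± 0.25 in MZ B cells (SD, n = 3 each), with no overlap between any 2 subsets. A two-sided exact permutation test gave p = 0.1 for each of the 3 comparisons (0.112 adjusted over the 9 ratio tests), the smallest that 3 libraries against 3 allow.

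Icosl encodes the only known ligand of ICOS and lies on chr10:77532105-77546000 (plus strand). Its FPKM was 153.6, 109.6 and 144.8 in FO B cells, 88.4, 75.1 and 67.3 in BDL and 61.7, 51.1 and 61.1 in MZ B cells. The order was the reverse of that of Cd80, highest in FO and lowest in MZ B cells, and no 2 subsets overlapped. MZ B cells had 0.426 times the FO level (log2 fold change -1.22, SE 0.16, adjusted p = 0.000745). BDL had 0.566 times the FO level, which passed the adjusted p but not the 2-fold limit (log2 fold change -0.82, SE 0.16, adjusted p = 0.0211). That adjusted p rose above 0.05 in a fit of only the 6 libraries compared (0.0532). It also did so without FO replicate 1 (0.0884) or 3 (0.0888), BDL replicate 2 (0.0624) or 3 (0.0506), or date 2 (0.101). BDL lay above MZ B cells on every date, by a log2 fold change of 0.40 (95% interval 0.04 to 0.77), with an adjusted p of 0.0959 and of 0.0321 with the date as a block.

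The Icosl promoter window (chr10:77531863-77532162, plus strand, NCBIM37, from RefSeq) is shown beside that of Cd80 because the genes had opposite orders over the subsets. It has no match to any of the 3 motifs and so carries no capitals.
Icosl: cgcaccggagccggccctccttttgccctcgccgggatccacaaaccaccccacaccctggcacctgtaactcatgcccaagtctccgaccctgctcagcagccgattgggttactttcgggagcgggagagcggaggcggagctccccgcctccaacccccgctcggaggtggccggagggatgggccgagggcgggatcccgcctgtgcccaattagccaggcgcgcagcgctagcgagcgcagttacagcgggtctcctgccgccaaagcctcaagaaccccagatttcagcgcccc

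Cd274 encodes PD-L1, which restrains T cells through PD-1, and lies on chr19:29441945-29462585 (plus strand). Its FPKM was 32.8, 38.0 and 31.3 in FO B cells, 35.7, 50.6 and 22.2 in BDL and 98.5, 124.1 and 96.2 in MZ B cells. The MZ libraries stood above all others, while the BDL values spread around those of FO B cells. MZ B cells were 3.12 times above FO B cells (log2 fold change 1.63, SE 0.27, adjusted p = 0.00250) and 2.94 times above BDL (log2 fold change of BDL over MZ -1.62, SE 0.27, adjusted p = 0.00284). Between BDL and FO B cells the log2 fold change was 0.01 with a 95% interval of -0.60 to 0.63 (adjusted p = 0.985), and its sign changed with upper quartile scaling (-0.06) or quantile normalization (-0.04), without FO replicate 1 (-0.01) or 3 (-0.04), without BDL replicate 1 (-0.02) or 2 (-0.27) and without date 2 (-0.19).

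Pdcd1lg2 encodes PD-L2, the second ligand of PD-1, and is the next gene named here on the same strand, 22.8 kb downstream of Cd274 on chr19:29485409-29545647. Its FPKM was 6.38, 5.77 and 5.80 in FO B cells, 4.21, 3.84 and 3.51 in BDL and 4.99, 4.88 and 4.78 in MZ B cells. It was the only one of the 8 genes whose 3 BDL libraries lay below all 6 others. Outside the 8, the same was so for Lta and Cd40, and the share of all rows was not counted. In single comparisons, BDL did not overlap with FO B cells in 34.8% of all rows and with MZ B cells in 38.9%. BDL had 0.644 times the FO level (log2 fold change -0.62, SE 0.09, adjusted p = 0.00542) and 0.789 times the MZ level (log2 fold change -0.34, SE 0.09, adjusted p = 0.0207), both under the 2-fold limit. Without the date 2 libraries these adjusted p-values were 0.129 and 0.170. The one against MZ B cells was 0.0541 without BDL replicate 2, 0.0745 without MZ replicate 1 and 0.0597 without MZ replicate 2. In a fit of only the 6 libraries compared it was 0.0733. MZ had 0.816 times the FO level (log2 fold change -0.29, SE 0.09, adjusted p = 0.0402), and this adjusted p stayed under 0.05 in 9 of 20 alternatives. It was 0.0634 to 0.148 without any FO or MZ library or BDL replicate 2, 0.0523 with no minimum, 0.0842 with upper quartile scaling and 0.199 without date 2.

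The neighbouring PD-1 ligand genes therefore stood in different orders over the subsets. Cd274 exceeded Pdcd1lg2 by 5.14 to 6.59 times in the FO libraries, by 6.32 to 13.2 times in BDL and by 19.7 to 25.4 times in MZ B cells. With 0.1 FPKM added to each gene, the log2 ratio of Pdcd1lg2 over Cd274 was -2.49 ± 0.19 in FO, -3.12 ± 0.53 in BDL and -4.41 ± 0.20 in MZ B cells (SD, n = 3 each). MZ B cells did not overlap with either other subset (exact permutation p = 0.1, adjusted 0.112), and BDL overlapped with FO B cells (exact permutation p = 0.2, adjusted 0.2).

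Both promoter windows are printed to show how the neighbours differ at their starts. They come from RefSeq and lie on the plus strand of NCBIM37, at chr19:29441678-29441977 for Cd274 and chr19:29485159-29485458 for Pdcd1lg2. Capitals mark a match to the NF-kB consensus at -244 from the Pdcd1lg2 start, where the consensus matches on each strand, and neither window holds TGGGAA or TGANTCA.
Cd274: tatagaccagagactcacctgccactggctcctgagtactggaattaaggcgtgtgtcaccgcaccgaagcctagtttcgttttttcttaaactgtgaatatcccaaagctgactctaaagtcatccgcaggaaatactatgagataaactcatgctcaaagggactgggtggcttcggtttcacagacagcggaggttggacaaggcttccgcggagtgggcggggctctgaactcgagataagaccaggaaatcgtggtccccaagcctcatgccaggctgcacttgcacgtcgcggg
Pdcd1lg2: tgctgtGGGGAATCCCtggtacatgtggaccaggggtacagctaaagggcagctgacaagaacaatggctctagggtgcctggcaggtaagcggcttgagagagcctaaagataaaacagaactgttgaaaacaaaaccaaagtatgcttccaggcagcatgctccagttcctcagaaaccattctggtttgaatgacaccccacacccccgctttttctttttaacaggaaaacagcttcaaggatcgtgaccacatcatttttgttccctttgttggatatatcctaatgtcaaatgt

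Btla encodes an immunoglobulin family receptor that dampens signals in the B or T cell that carries it, and lies on chr16:45224428-45253008 (plus strand). Its FPKM was 260.2, 226.1 and 236.3 in FO B cells, 226.2, 215.0 and 135.0 in BDL and 96.9, 94.4 and 65.5 in MZ B cells. All 3 MZ libraries lay below the rest, and BDL overlapped with FO B cells through BDL replicate 1. MZ B cells had 0.355 times the FO level (log2 fold change -1.51, SE 0.22, adjusted p = 0.00148). BDL were 2.24 times above MZ B cells (log2 fold change 1.15, SE 0.22, adjusted p = 0.00630), a fold that fell just under the 2-fold limit without MZ replicate 3 (log2 fold change 0.97, adjusted p = 0.0160) and an adjusted p that became 0.0841 without date 2. The log2 fold change of BDL over FO was -0.36 with a 95% interval of -0.88 to 0.15 (adjusted p = 0.364), and BDL lay below FO B cells on 3 of 3 dates.

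Tnfrsf14 encodes HVEM, the ligand of BTLA, on chr4:154296319-154302672 (minus strand). Its FPKM was 13.5, 7.77 and 11.6 in FO B cells, 15.99, 13.7 and 9.99 in BDL and 15.8, 14.6 and 13.7 in MZ B cells. It was not called in any comparison, and its MZ libraries lay above the FO libraries by a narrow margin, with a log2 fold change of 0.45 (95% interval -0.07 to 0.97, adjusted p = 0.184). The intervals of the log2 fold change were -0.24 to 0.80 for BDL over FO and -0.69 to 0.35 for BDL over MZ (adjusted p = 0.474 and 0.615), and all 3 intervals leave out a 2-fold difference.

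Btla exceeded its ligand in every library, by 19.3 to 29.1 times in FO B cells, 13.5 to 15.6 times in BDL and 4.78 to 6.47 times in MZ B cells. With 0.1 FPKM added to each gene, the log2 ratio of Btla over Tnfrsf14 was 4.48 ± 0.32 in FO, 3.84 ± 0.11 in BDL and 2.52 ± 0.23 in MZ B cells (SD, n = 3 each). The 3 subsets did not overlap in this ratio (exact permutation p = 0.1 for each comparison, adjusted 0.112), with BDL between the others.

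**Figure D3:**
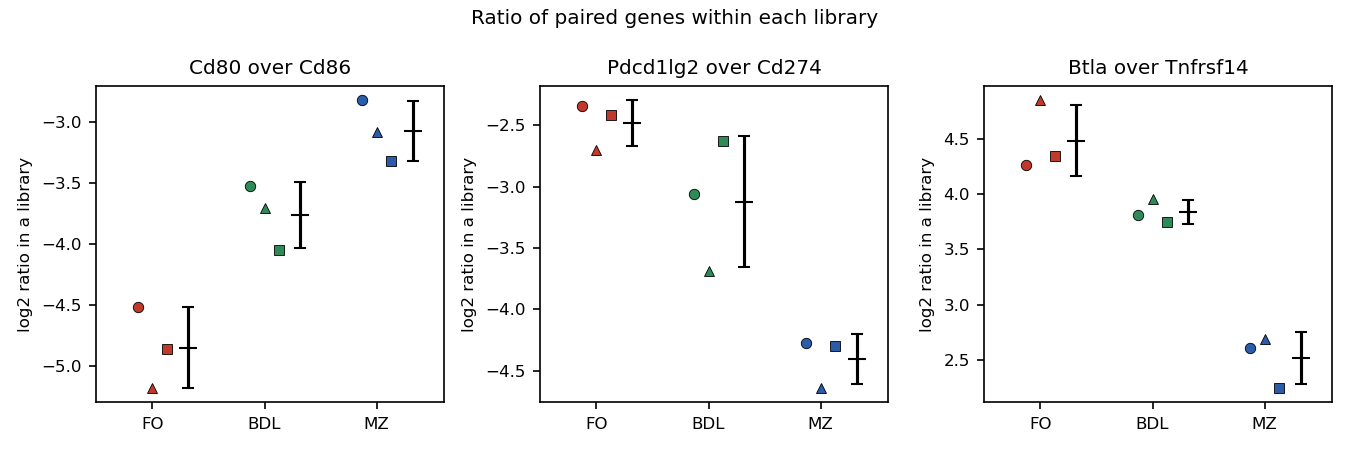
Log2 ratio of the FPKM of paired genes within each library (vertical axes) by subset, with symbols for the sort date (circle 1, triangle 2, square 3) and bars for the mean with SD of 3 libraries. The mean ratio of Cd80 over Cd86 goes from -4.85 in FO to -3.08 in MZ B cells, while those of Pdcd1lg2 over Cd274 and of Btla over Tnfrsf14 go down from FO to MZ B cells, with the mean of BDL between the others in each panel.

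The promoter window of Btla, the gene with the highest level of the 8 in FO B cells and BDL, lies at chr16:45224200-45224499 (plus strand, NCBIM37, from RefSeq). Capitals mark a TGGGAA match at position 11 after the start.
Btla: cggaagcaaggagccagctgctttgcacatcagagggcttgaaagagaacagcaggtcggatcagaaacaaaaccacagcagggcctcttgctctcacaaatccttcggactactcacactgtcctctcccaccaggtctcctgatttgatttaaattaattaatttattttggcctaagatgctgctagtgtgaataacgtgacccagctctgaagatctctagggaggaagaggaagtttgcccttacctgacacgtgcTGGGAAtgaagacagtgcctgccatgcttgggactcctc
RefSeq windows were at hand for 7 of the 8 genes, all but Cd86. The windows not printed are those of Tnfrsf14, with a TGGGAA match at -208, and Ctla4, with no match to the 3 motifs.

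Ctla4 encodes the inhibitory receptor that competes with CD28 for CD80 and CD86, known best from regulatory and activated T cells, and lies on chr1:60943844-60972676 (plus strand). Its FPKM was 0.541, 1.69 and 0.388 in FO B cells, 1.95, 5.50 and 0.909 in BDL and 2.42, 7.85 and 1.36 in MZ B cells. The date 2 library was the highest of each subset, so that the subsets overlapped although the order FO, BDL, MZ was the same on each of the 3 dates. On dates 1, 2 and 3, BDL exceeded FO B cells by 1.67, 1.64 and 1.05 on the log2 scale, and MZ exceeded FO B cells by 1.97, 2.15 and 1.59. BDL lay under MZ B cells, with differences of -0.30, -0.51 and -0.54. The interval of Ctla4 overlaps that of Rpl18-ps1 on the same strand, which has no row of its own. The part of this overlap in the values was not tested.

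Without a date term, Ctla4 passed no test, with log2 fold changes of 1.46 for BDL over FO (SE 0.82, adjusted p = 0.317), 1.90 for MZ over FO (SE 0.82, adjusted p = 0.128) and -0.45 for BDL over MZ (SE 0.82, adjusted p = 0.724). With the date as a block, the SE was 0.15 and Ctla4 was called higher than in FO B cells in both BDL (adjusted p = 0.00347) and MZ B cells (adjusted p = 0.000227), while BDL against MZ B cells had an adjusted p of 0.0516. In the block fit without date 2, the log2 fold change of MZ over FO was 1.78 (adjusted p = 0.00961), and BDL over FO was not called.

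The rise of Ctla4 on date 2 was 1.68 in FO, 1.96 in BDL and 2.05 in MZ B cells, as the log2 difference from the mean of the other dates. Of the 11597 rows tested, 152 moved by as much as its mean of 1.90 in either direction, and 23 rose at least as much in every subset, Ctla4 among them. Cd83, an activation marker of B and dendritic cells, was also higher on date 2, by 1.36, 1.03 and 1.57 in FO, BDL and MZ B cells. So was Lyz2, the lysozyme of macrophages and granulocytes, by 1.89, 1.61 and 1.70, from levels of 0.656 to 0.964 FPKM on the other dates to 2.43 to 3.25 FPKM. Of the other 7 genes, Cd274 had the next largest mean shift, of 0.48.

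The summed FPKM of 13 T cell markers was 5.53, 6.55 and 4.49 in FO B cells, 4.79, 5.93 and 3.50 in BDL and 8.80, 9.27 and 7.90 in MZ B cells for dates 1 to 3. It was thus highest on date 2 in each subset. The sum was lower in BDL than in FO B cells on every date, while 10 of the 13 markers had a higher mean in BDL than in FO B cells and 3 a lower one (Zap70, Lat and Foxp3). None of the 13 was at 0 in all 3 libraries of a subset. Cd3e, part of the T cell receptor complex, was between 0.03 and 0.41 FPKM. Zap70, a kinase of T cell receptor signalling, was at 5.13, 4.13 and 5.40 FPKM in MZ B cells. Without Zap70, the other 12 markers summed to 3.61, 4.81 and 3.17 FPKM in FO B cells, 3.85, 4.87 and 2.66 in BDL and 3.67, 5.14 and 2.50 in MZ B cells, and the subsets overlapped. The 12 dendritic and myeloid markers summed to 4.83 to 7.67 FPKM in FO, 8.01 to 11.1 in BDL and 6.73 to 10.7 in MZ B cells, again highest on date 2. Among them Emr1 (F4/80) was called higher in BDL than in FO B cells, at 3.48 against 0.802 FPKM (log2 fold change 1.99, adjusted p = 0.000822). Lyz2, Flt3, Xcr1 and Zbtb46 of this list had lower means in BDL than in FO B cells, and the others higher ones. The median log2 fold change of BDL over FO for the 5 that were tested was -0.05. The part of other cell types in the level of Ctla4 was not tested.

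**Figure D4:**
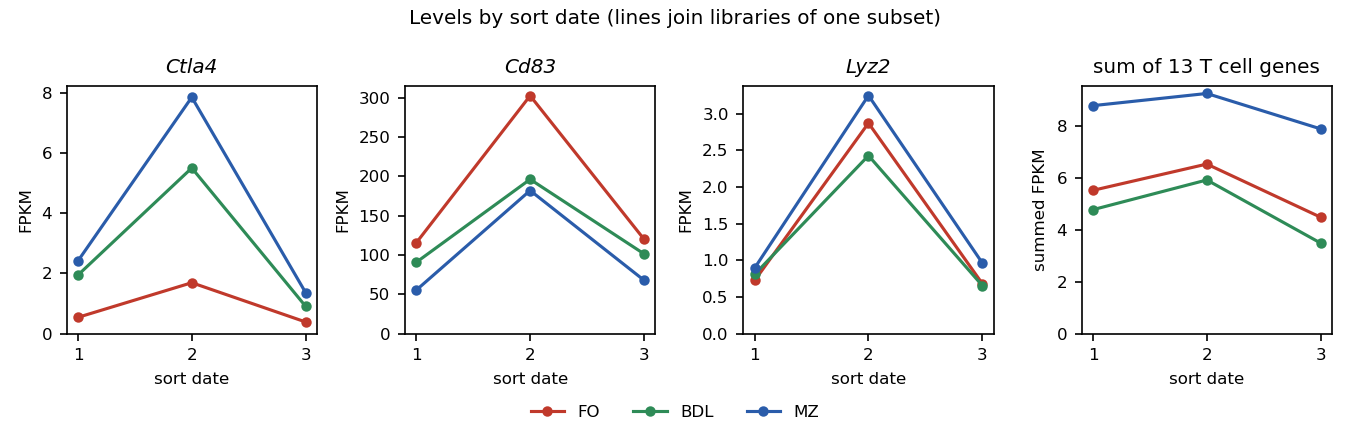
FPKM of Ctla4, Cd83 and Lyz2 and the summed FPKM of 13 T cell markers (vertical axes, each from 0) by sort date (horizontal axes), with a line for each subset. Every line is highest on date 2, and the Ctla4 lines keep the order FO, BDL, MZ on all 3 dates.

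Set side by side within a subset, the levels of the 8 genes spanned a wide range. In FO B cells the mean FPKM ran from Btla (240.8) through Icosl (136.0), Cd274 (34.0), Tnfrsf14 (10.95), Cd86 (9.97), Pdcd1lg2 (5.98) and Ctla4 (0.873) to Cd80 (0.250), and of neighbours in this order Tnfrsf14 and Cd86 overlapped. BDL had the same order, with overlaps of Tnfrsf14 with Cd86 and of Pdcd1lg2 with Ctla4. In MZ B cells Cd274 (106.3) came first and overlapped with Btla (85.6), followed by Icosl (58.0), Cd86 (23.6) and Tnfrsf14 (14.7), and then by Pdcd1lg2 (4.88), Ctla4 (3.88) and Cd80 (2.72), where Ctla4 overlapped with both of its neighbours. Btla stood at rank 251 of all rows tested in FO B cells, and Cd274 at rank 527 in MZ B cells.

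Beside Btla and Ctla4, further receptors and binding partners of the 8 proteins were listed, and most were low in the sorted B cells, whose gate does not include T cells. Cd28 was at 0.03 to 0.27 FPKM, Icos at up to 0.11, Pdcd1 (PD-1) at up to 0.04, Tnfsf14 (LIGHT, a further ligand of HVEM) at up to 0.06 and Cd160, another receptor of HVEM, at 0.27 to 0.56. Of the 8 listed receptors and binding partners, 2 reached the minimum for testing. Rgmb, a coreceptor for bone morphogenetic proteins that also binds PD-L2, was 0.476, 0.380 and 0.506 FPKM in FO B cells, 0.409, 0.217 and 0.380 in BDL and 1.54, 0.964 and 2.39 in MZ B cells. All MZ libraries stood above the others, and Rgmb was called lower in BDL than in MZ B cells (log2 fold change -1.94, SE 0.33, adjusted p = 0.00340) and higher in MZ than in FO B cells (1.57, SE 0.33, adjusted p = 0.00912). With 1 FPKM added, both fell under the 2-fold limit (-0.95 and 0.82), and with quantile normalization the adjusted p of MZ over FO was 0.0739. Lta, lymphotoxin alpha, was the other gene tested. At 10.2 FPKM in BDL against 16.4 in FO and 17.6 in MZ B cells it passed the adjusted p (0.0273 and 0.00477) but not the 2-fold limit.

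Of 3 other B7 family ligands, Vtcn1 was listed at 0 in all libraries and 2 were tested. Cd276 (B7-H3) was 0.899, 0.536 and 1.01 FPKM in FO B cells, 1.26, 0.980 and 1.49 in BDL and 0.380, 0.287 and 0.452 in MZ B cells. Its highest mean was in BDL, which overlapped with FO B cells, and BDL over FO was not called (log2 fold change 0.58, adjusted p = 0.231). It was called higher in BDL than in MZ B cells (log2 fold change 1.51, SE 0.27, adjusted p = 0.00403), though not with 1 FPKM added (0.71). For MZ over FO the log2 fold change was -0.93 (adjusted p = 0.0340), under the 2-fold limit, which it passed in 6 of 19 alternatives.

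Of 15 other ligands for T cells outside the TNF family, 11 were tested, and 4 were called in each comparison that involved MZ B cells. For BDL against FO B cells 0 were called by limma, and 2 had an unadjusted p under 0.05. The share of all rows under that unadjusted p was not counted, here or for the lists below. Cd200, Slamf1, Pvrl1 and Pvr were called in both comparisons, which share the MZ libraries. Cd200, whose receptor restrains myeloid and T cells, had 4.22 FPKM in MZ B cells against 19.2 in BDL and 20.4 in FO B cells (log2 fold change of BDL over MZ 2.13, adjusted p = 0.000161). Slamf1, a self-binding receptor shared by B and T cells, had 3.41 FPKM against 15.0 in BDL and 15.6 in FO B cells (2.11, adjusted p = 0.000137). Pvrl1 (nectin-1), an adhesion protein, had 0.283 FPKM against 1.02 and 1.31 (1.54, adjusted p = 0.00160), with folds under 2 when 1 FPKM was added and an adjusted p of 0.0525 without date 2. Pvr (CD155), a ligand of DNAM-1 and TIGIT, went the other way, with 6.24 FPKM in MZ B cells against 2.24 and 2.25 (-1.44, adjusted p = 0.000196).

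Of 7 listed genes for turnover and signalling partners, such as Cmtm6, which keeps PD-L1 at the surface, 5 were tested and 0 were called in any comparison by limma. At an unadjusted p under 0.05 there were 1, 2 and 2 of them, and by the adjusted p alone 0, 2 and 2, for BDL against FO, BDL against MZ and MZ against FO B cells. The 2 that passed the adjusted p in the comparisons with MZ B cells were Cmtm6 and Ptpn6, a phosphatase recruited by BTLA, with log2 fold changes of 0.99 and 0.61 for BDL over MZ. Of 12 activation genes of B cells, Myc alone was called, at 429.5 FPKM in MZ B cells against 105.5 in BDL and 126.0 in FO B cells (log2 fold change of BDL over MZ -2.01, adjusted p = 2.67e-05). Between BDL and FO B cells 0 of the 12 were called by limma. By the adjusted p alone 2 passed (16.7%, against 7.73% of all rows), and 6 had an unadjusted p under 0.05. Cd83 was not called, with a log2 fold change of -0.41 for BDL over FO (adjusted p = 0.671).

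The rows most like each called gene over the 9 libraries were listed by Pearson's r of log2(FPKM + 0.1), as a description only, since all rows share the libraries and the subset means dominate r. For Cd80 they were Mybl2 (r = 0.994), Csf2rb (0.993) and Smyd2 (0.993), all lowest in FO and highest in MZ B cells. For Cd86 they included Amigo2 (0.995) and Atf3 (0.990), and for Cd274 they were Cd300lf (0.989), D930015E06Rik (0.988) and Gramd1b (0.986). For Icosl they were Slc26a10 (0.988), Ciita (0.978), the master regulator of MHC class II genes, and Ffar1 (0.978). For Btla they were Il27ra (0.993), Dgka (0.993) and Ccdc88c (0.993). Ciita, for example, had a mean of 86.2 FPKM in FO, 61.7 in BDL and 46.5 in MZ B cells.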

How the data were processed

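RNA from 9 libraries of sorted splenic B cells, 3 each of FO, BDL and MZ, was sequenced. The authors aligned the reads to mm9 with TopHat2 2.1.0 and deposited FPKM per gene and library, computed with Cufflinks, which were used here without further scaling. Column sums were 446033 to 517208 FPKM, and 7634 to 8599 of 24459 rows were at 0 in a library. Depth was estimated from the spacing of low FPKM in single-transcript genes, where 67.6% to 75.9% of values came within 0.1 of whole fragments. Fragment numbers are therefore approximate.

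Values were tested as log2(FPKM + 0.1) using limma (version 3.58.1, R 4.3.3; eBayes with a trend). The 11597 rows that averaged 0.5 FPKM or more were tested in 1 fit of all 9 libraries, whose term was the subset. Benjamini-Hochberg adjustment covered these rows. The constant added makes folds of low genes too small. Log2 ratios of paired genes, with 0.1 FPKM added to each, were compared with two-sided exact permutation tests, whose smallest p is 0.1. The fit was tested on simulated data.

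The genes, lists and tests were chosen with earlier results of these data known. Every one of the 8 genes is named, with each listed gene that was called and the 3 rows most like each called gene, of which 1 is not reported here. Cmtm6, Ptpn6, Cd83, Lta and the markers named beside Ctla4 were chosen after their values were seen. March1, listed as a turnover gene, has 2 differing rows and was not used.

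The titles give libraries of 1 number a shared date. The correlation across rows of their deviations from the subset means was 0.147, -0.062 and 0.049 between BDL and FO, 0.1, 0.182 and 0.244 between BDL and MZ, and 0.024, 0.008 and 0.014 between MZ and FO B cells for dates 1 to 3. The study's methods name no date term, so the date was a block only in an alternative fit. Libraries of 1 subset come from separate sorts, and p-values measure the spread between these. Whether the subsets of 1 date came from the same pool of mice is not stated in the sources used here. Gene positions came from GENCODE M1 on NCBIM37 and promoters from RefSeq, matched by sequence to that genome. The authors' table of differential expression was not used here.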

Additional observations from a re-analysis of the deposited data

How the results depend on the processing

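Over 20 alternatives for each of 24 values (8 genes in 3 comparisons), 457 of 480 kept their direction and their status as called or not called, 9 lost a call, 3 gained one and 11 changed sign. Alternatives were another constant, minimum, scaling or variance model, the 2 compared subsets alone, the date as a block, each library left out and, chosen after the data were seen, all date 2 libraries left out. In all 20, Cd80, Cd86, Icosl, Cd274 and Btla were called between MZ and FO B cells, and Cd80, Cd86 and Cd274 between BDL and MZ B cells.

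The 1 gene called between BDL and FO B cells became 0 with 1 FPKM added, 0 without date 2, with or without the block, and 0 to 1 when 1 library was left out. It became 3 by adjusted p alone. With the replicate block the count was 2 (Cd80 and Ctla4). The block also added Ctla4 to the calls between MZ and FO B cells and changed no other call of the 8 genes. The causes were not tested.

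For Cd274 in BDL over FO, the log2 fold change of 0.01 became -0.061 with upper quartile scaling, -0.039 with quantile normalization, -0.19 without date 2, with or without the replicate block, and -0.27 to 0.33 when 1 library was left out. With 1 library left out, BDL over FO ranged from -0.29 to 0.074 for Cd200, from -0.13 to 0.11 for Pvr and from -0.20 to 0.076 for Slamf1. Likewise, BDL over MZ ranged from -0.32 to 0.016 for Tnfrsf14 and from -1.10 to 0.24 for Ctla4. None of these was called.

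Depth limits Cd80 and Ctla4 most, at 27 to 41 and 44 to 188 fragments in FO libraries. Left-out dates leave 2 libraries a subset, and a call lost there also has fewer samples behind it.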
